A study of Mus musculus with 24 samples.

Results

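The 10 genes described here encode the 4 pore-forming subunits of the AMPA receptor (Gria1, Gria2, Gria3 and Gria4) and the 6 transmembrane AMPA receptor regulatory proteins, or TARPs. The TARPs comprise the 4 type I members Cacng2 (stargazin), Cacng3, Cacng4 and Cacng8 and the 2 type II members Cacng5 and Cacng7. They were chosen by symbol from the 53379 genes of the count table, by a rule that uses no measured value but was set with earlier results of these data known, and all 10 were among the 37598 genes that passed the filter on low counts. The study compared right hippocampi of adult male C57/BL6N mice, acquired at 8 weeks of age, at 24 hours after an intracortical injection of kainic acid (KA), which elicits a status epilepticus, or after a sham (SH) injection without it. SH mice received saline and otherwise went through the same procedures, and both treatments included medetomidine and ketamine anaesthesia, atipamezole and buprenorphine. KA animals without convulsive seizures were left out by the study, so the KA groups hold responders. Hippocampi of 8 mice per treatment were combined into 3 pools, of 4 mice in replicate 1 and of 2 mice in replicates 2 and 3, and the nuclei were then divided by flow sorting into NeuN+ (neurons) and NeuN- (glia, a gate that may also hold endothelial cells and pericytes). This gave 4 groups of 3 libraries (SH neurons, KA neurons, SH glia and KA glia), 12 mRNAseq libraries in all.

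AMPA receptors are tetramers that carry most of the fast excitatory current in the brain, and kainic acid itself opens them as well as the kainate receptors. Which subunits assemble sets how a channel conducts. Receptors that contain edited Gria2 pass almost no calcium, whereas those without it do. TARPs sit beside the pore. Type I members broadly bring the receptor to the surface and to the synapse and slow its closing. The type II members Cacng5 and Cacng7 act on fewer subunit combinations. Hippocampal pyramidal cells are rich in Gria1, Gria2 and Cacng8, interneurons in Gria4, and oligodendrocyte precursor cells (OPC) carry AMPA receptors of their own.

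The libraries measure RNA of nuclei, as total counts between 7769400 and 40364768 per library. SH glia replicate 1 and KA glia replicate 2 were amplified from about 0.05 ng RNA with 15 PCR cycles, the other 10 libraries from about 1 ng with 10 cycles, so log2 changes of members in glia are also given without these 2 libraries, as are those of the other genes named as called there without a block. Levels are CPM (counts relative to the library size) scaled by TMM factors, and levels of different genes are set side by side only as CPM per kb of exon. The sort was checked with marker lists. The sum of 15 neuron markers was 5339 to 8721 CPM in neurons and 544 to 1975 CPM in glia, and the sum of 6 OPC markers was 867 to 3069 CPM in glia and 47.2 to 203 CPM in neurons. RNA of neuron markers was thus counted in every NeuN- library. The TMM scaling left the median log2 change of all genes tested at 0.14 in glia and close to 0 in neurons (0.00048), and library totals alone moved it to 0.42 and 0.11. Fewer nuclei of a type and less RNA per nucleus cannot be told apart in these data.

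The 4 Gria genes code for closely related proteins, and their exons around the codon that decides calcium passage are shown here because it is the point at which Gria2 differs in function from the other subunits. Each window holds 30 bases of the coding exon on the gene's own strand (GRCm38), and the capitals mark the codon of the Q/R editing site. In Gria2 an adenosine of this codon is edited in nearly all transcripts by Adarb1, so that the glutamine codon is read as arginine. The window lies at chr11:57243079-57243108 for Gria1, chr3:80706899-80706928 for Gria2, chrX:41610250-41610279 for Gria3 and chr9:4464125-4464154 for Gria4.
Gria1: ctgggggccttcatgCAGcaaggatgtgac
Gria2: ttgggtgcctttatgCAGcaaggatgcgat
Gria3: ttgggtgcttttatgCAGcaaggatgtgat
Gria4: ctgggtgcctttatgCAAcaaggatgtgac

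The genome encodes glutamine at this codon in all 4 genes, as CAG in Gria1, Gria2 and Gria3 and as CAA in Gria4. Over the 30 bases, Gria3 differed from Gria2 at 2 bases, Gria4 at 4 and Gria1 at 5. A count per gene adds edited and unedited transcripts together, so the values of Gria2 below say nothing of editing.

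In SH neurons Gria2 and Gria1 stood far above the other 8 genes. Per kb of exon, Gria2 reached 264 ± 80.9 CPM per kb (SD, n = 3) and Gria1 249.98 ± 112 CPM per kb, with overlapping ranges. Gria3 followed at 28.4 ± 6.63 CPM per kb, below the range of Gria1 and above that of Cacng3 at 19.3 ± 2.37 CPM per kb. Cacng3, Gria4 (17.3 ± 4.11), Cacng8 (11.3 ± 8.95), Cacng5 (4.61 ± 1.40), Cacng7 (2.64 ± 0.979), Cacng2 (2.38 ± 0.313) and Cacng4 (1.57 ± 0.898 CPM per kb) came next, each overlapping its neighbour in this order. Among the TARPs Cacng3, a type I member of forebrain neurons, made up 48.3% ± 13.2 of the summed CPM per kb of the 6 genes in SH neurons and Cacng8, the TARP for which hippocampus is best known, 24.7% ± 14.2.

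The order in SH glia differed at the TARPs. Gria2 (64.3 ± 26.8 CPM per kb) and Gria1 (40.8 ± 25.6) were again the highest. Cacng4 followed at 18.04 ± 2.43 CPM per kb, with a range overlapping that of Gria1 and above that of Gria4 (11.9 ± 3.49). Gria3 (6.28 ± 1.59), Cacng5 (4.74 ± 0.747), Cacng3 (3.57 ± 0.454), Cacng8 (2.74 ± 1.53) and Cacng7 (2.06 ± 1.44) followed, each overlapping its neighbour, and Cacng2 was last at 0.790 ± 0.167 CPM per kb, apart from the rest. Cacng4 thus held 54.3% to 60.4% of the summed TARP level per kb in the 3 SH glia libraries, where Cacng3 held 8.54% to 13.2%.

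**Figure D1:**
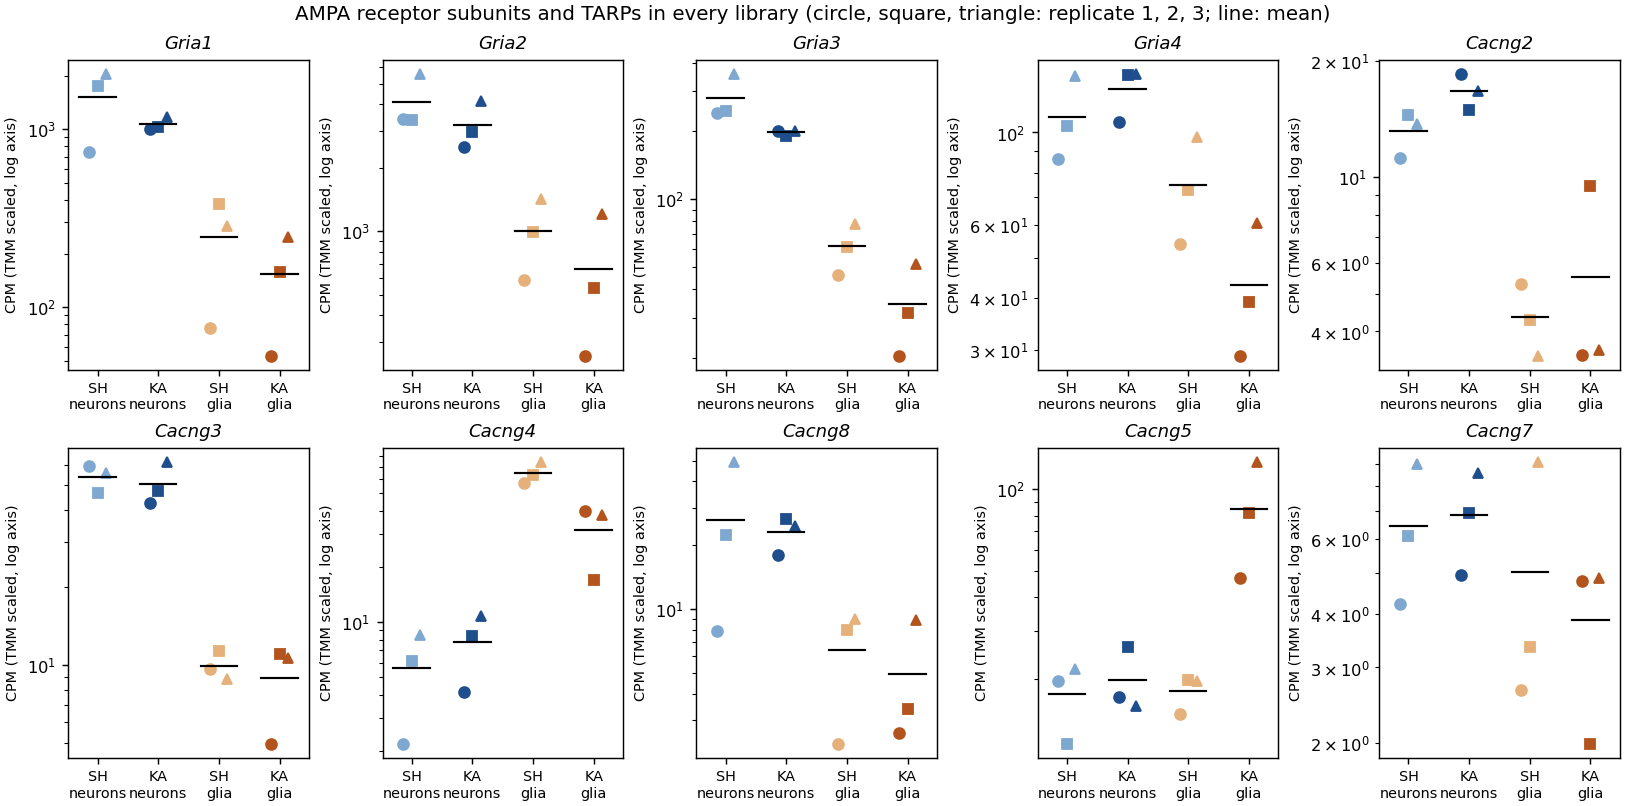
Level of each gene in every library, as TMM scaled CPM on a log axis, for SH and KA neurons and glia. Circles, squares and triangles stand for replicates 1, 2 and 3 and the black line for the mean of 3 libraries. Cacng5 in KA glia lies at 47.1 to 126 CPM, above all other groups, and Cacng4 is highest in SH glia.

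Neurons were set against glia within the SH pools to ask which fraction each gene belongs to without treatment. At an FDR of 0.05 in edgeR's quasi-likelihood test with Benjamini-Hochberg adjustment, 6 of the 10 genes were higher in neurons, where 6.05% of all genes tested were, and 1 was higher in glia, where 4.67% of all genes were. The 6 neuronal genes were Gria1, Gria2, Gria3, Cacng2, Cacng3 and Cacng8. Cacng3 measured 59.3, 46.5 and 55.5 CPM in SH neurons and 9.65, 11.3 and 8.81 CPM in SH glia for replicates 1, 2 and 3, groups that do not overlap. Its log2 difference was 2.44 ± 0.35 (SE, edgeR adjusted p = 0.000312). Gria1 was higher in neurons by 2.61 ± 0.65, Gria3 by 2.18 ± 0.39, Gria2 by 2.04 ± 0.62, Cacng8 by 2.03 ± 0.62 and Cacng2 by 1.60 ± 0.43 on the log2 scale, with edgeR adjusted p between 0.00172 and 0.0452.

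Cacng4 was the one member that belonged to glia. This TARP is known from the immature brain and from glial cells. It measured 2.18, 6.15 and 8.53 CPM in SH neurons and 56.7, 62.9 and 73.8 CPM in SH glia, which is 11.4-fold higher in glia (log2 difference of neurons to glia -3.51 ± 0.51, edgeR adjusted p = 0.000338). Gria4, Cacng5 and Cacng7 did not pass the threshold, with log2 differences of 0.54 ± 0.36, -0.04 ± 0.38 and 0.35 ± 0.55. With neurons and glia of a pool joined by a block, the same 6 genes passed as higher in neurons and Cacng4 as higher in glia. Their edgeR adjusted p lay between 5.64e-06 and 0.00443, and 14.2% and 7.56% of all genes passed in these directions. In the fit without this block, the differences were less firm for the other called genes than for Cacng3 and Cacng4 when libraries were left out. Without the 2 low-input libraries, only Cacng3 (2.20, edgeR adjusted p = 0.0118) and Cacng4 (-3.88, edgeR adjusted p = 0.000512) still passed. Leaving out 1 library left 3 members without SH neurons replicate 3 or SH glia replicate 1, and 4 without SH neurons replicate 2, SH glia replicate 2 or KA glia replicate 2.

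Within a pool, the level in glia as a percentage of that in neurons separated 2 kinds of members. For Gria2 this percentage was 17.3%, 29.6% and 25.5% in SH pools 1, 2 and 3. The sum of the 15 neuron markers gave 12.1%, 29.5% and 22.6% in the same pools. Gria1 (10.2% to 21.6%), Gria3 (19.3% to 25.2%) and Cacng3 (15.9% to 24.3%) lay near the percentages of the markers, Gria1 below the marker value of the same pool in each of the 3 pools. Cacng8 (18.3% to 35.9%) and Cacng2 (25.3% to 47.4%) reached somewhat higher. Gria4, by contrast, reached 62.4%, 70.3% and 71.3%, Cacng7 55.0% to 101%, Cacng5 75.6% to 172% and Cacng4 865% to 2601%. In each of the 3 SH pools, these 4 genes lay above the percentage of the neuron markers. How much of the glial signal of any member came from neuronal nuclei was not tested.

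**Figure D2:**
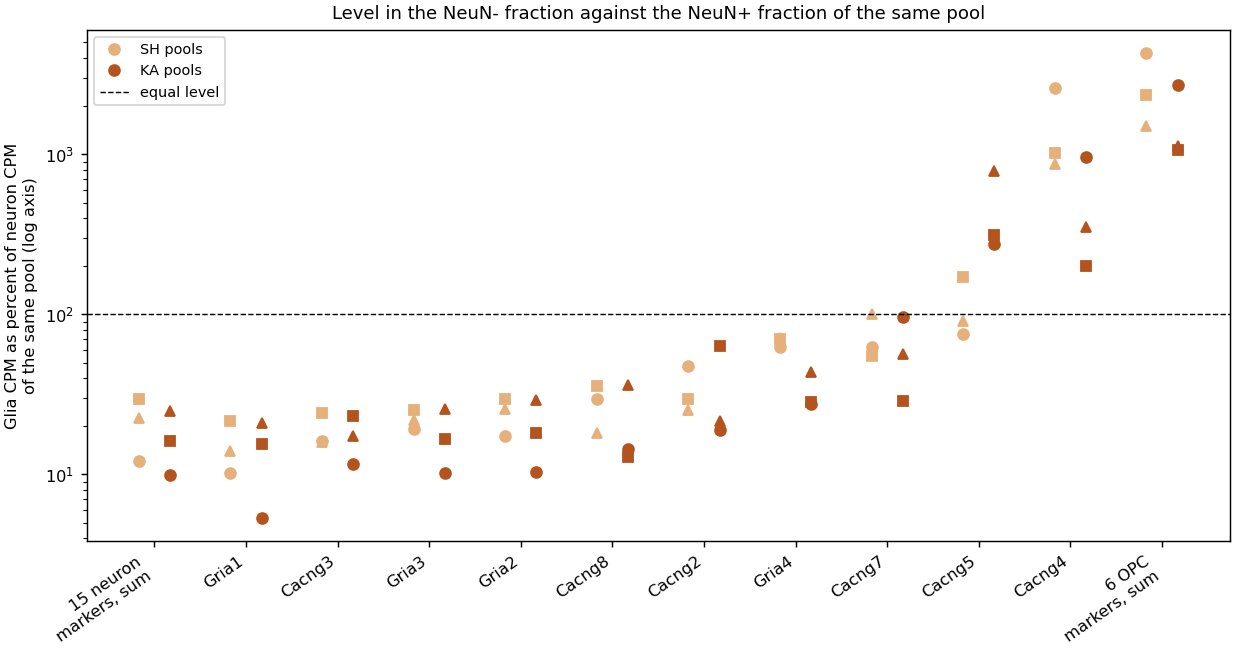
Level in the NeuN- fraction as a percentage of the level in the NeuN+ fraction of the same pool, on a log axis, for each gene and for 2 marker sums. Circles, squares and triangles are pools 1, 2 and 3, light for SH and dark for KA, and the dashed line marks equal levels. Gria1, Gria2, Gria3 and Cacng3 sit near the 15 neuron markers, while Gria4, Cacng7, Cacng5 and Cacng4 lie above them in the SH pools.

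KA was set against SH in neurons to ask whether the receptor genes of the cells that were driven by kainic acid had moved after 24 hours. None of the 10 members passed the FDR of 0.25 in edgeR's quasi-likelihood test, where 0.340% of all genes did. None had an unadjusted p under 0.05, and DESeq2 also called 0 members. With a block for the replicate number the count was again 0, beside 3.05% of all genes. Log2 changes of the members ran from -0.51 to 0.47 with a median of -0.0047, beside 0.00048 over all genes tested.

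Gria2, the most abundant subunit, measured 3389, 3367 and 5556 CPM in SH neurons and 2499, 2945 and 4147 CPM in KA neurons. Each KA library was below the SH library of the same number, yet the groups overlapped (log2 change -0.36 ± 0.60). Gria1 measured 745, 1750 and 2038 CPM in SH neurons and 1002, 1029 and 1177 CPM in KA neurons (-0.50 ± 0.62), and the spread among SH pools was wider than that among KA pools. With 1 neuron library left out, its log2 change ran from -0.83 to -0.22. Gria3 measured 240, 245 and 356 CPM in SH neurons and 201, 190 and 201 CPM in KA neurons. Its groups did not overlap, and its log2 change was -0.51 ± 0.38. Gria4 measured 86.2, 104 and 137 CPM in SH neurons and 106, 138 and 138 CPM in KA neurons (0.22 ± 0.36), higher in each of the 3 KA libraries than in its SH partner but with overlapping groups.

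Of the TARPs in neurons, Cacng2 was the one whose groups did not overlap, at 11.2, 14.5 and 13.7 CPM in SH neurons and 18.4, 14.9 and 16.7 CPM in KA neurons (0.34 ± 0.41). Gria3 and Cacng2 were therefore 2 of 10 members without overlap in neurons, where 9.72% of all genes had none. Cacng4 was low in neurons, at 2.18 to 8.53 CPM in SH and 4.19 to 10.7 CPM in KA, with a log2 change of 0.47 ± 0.47. Cacng3 (-0.09 ± 0.33), Cacng5 (0.17 ± 0.38), Cacng7 (0.08 ± 0.55) and Cacng8 (-0.20 ± 0.59) had log2 changes smaller than their standard errors. Beside these values, the sum of 5 granule cell markers was 583 to 812 CPM in SH neurons and 369 to 376 CPM in KA neurons, with all KA libraries below SH, and 2 of the 5 (Plk5 and Calb1) were lower at the threshold. The sum of 3 CA1 markers was also without overlap, at 296 to 399 CPM in SH neurons and 272 to 282 CPM in KA neurons, with none called. All markers of both lists had counts in every library. The sums of the CA3, interneuron and excitatory lists overlapped between treatments in neurons. For CA3 the sum was 132 to 218 CPM in SH and 162 to 255 CPM in KA, higher in each KA library than in its SH partner. It was 311 to 571 and 435 to 505 CPM for interneuron markers, and 2101 to 3916 and 2017 to 2313 CPM for excitatory markers. The part of these cell types in the values of the members was not tested.

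The shares of Gria1, Gria2 and Gria3 in the summed Gria level of neurons overlapped between treatments. Gria2 held 39.6% to 57.5% of the summed CPM per kb of the 4 genes in SH neurons and 44.2% to 52.9% in KA neurons. Gria4 held 3.60%, 3.00% and 2.89% in SH neurons and 4.62%, 5.45% and 4.35% in KA neurons, so that its groups did not overlap. No test was made of these shares, since they are a score over the members.

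**Figure D3:**
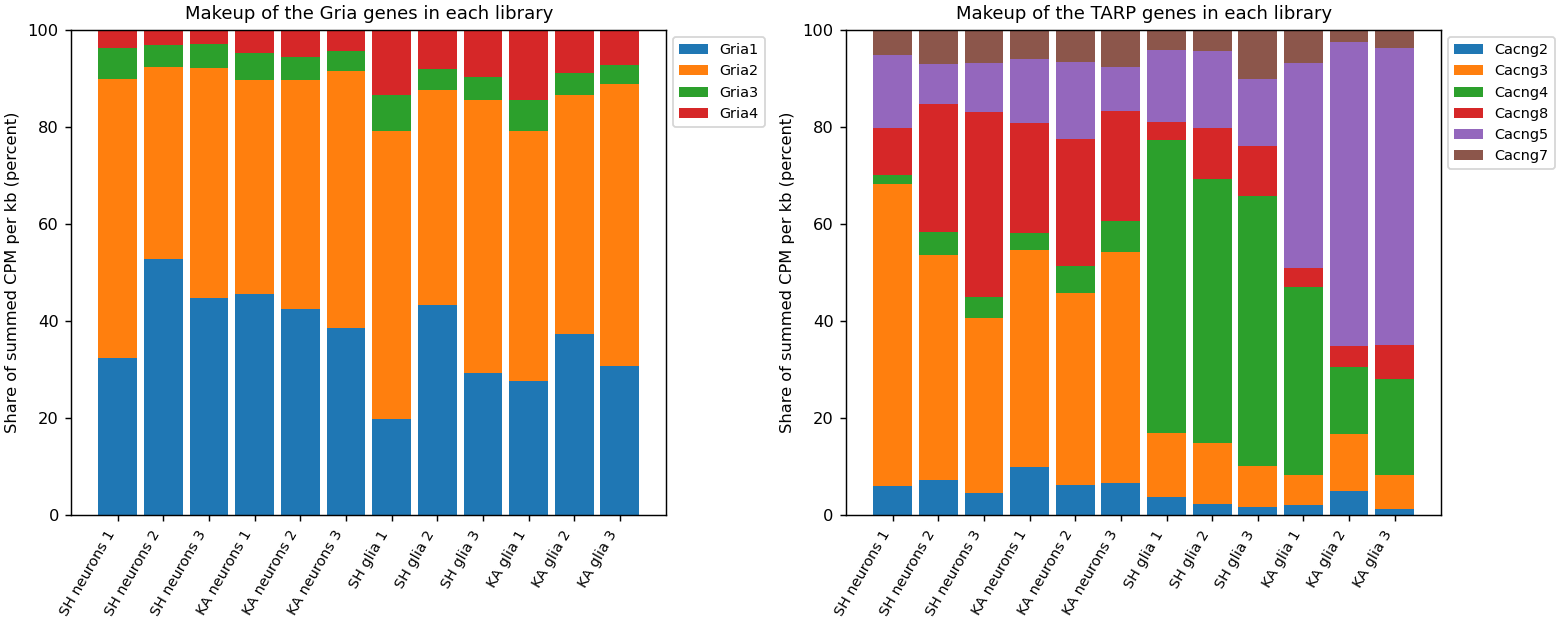
Share of each gene in the summed CPM per kb of the 4 Gria genes (left) and of the 6 TARP genes (right), in percent, in each library. Each bar is 1 library and the colours are the genes. In glia Cacng4 held 54.3% to 60.4% of the TARP sum in SH and 13.9% to 38.8% in KA, while Cacng5 held 13.9% to 16.02% in SH and 42.3% to 62.7% in KA.

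KA was then set against SH in glia. Of the 10 members 1 rose, Cacng5, where 0.442% of all genes tested rose, and none fell, where 0.306% of all genes fell (edgeR's quasi-likelihood test, FDR below 0.25). DESeq2 also called 1 member, and 4 members had an unadjusted p under 0.05 in edgeR (Gria3, Gria4, Cacng4 and Cacng5), as had 4.79% of all genes tested. The median log2 change of the members was -0.49, beside 0.14 over all genes tested. Cacng5, a type II TARP, measured 14.9, 19.9 and 19.8 CPM in SH glia and 47.1, 81.9 and 126 CPM in KA glia. The lowest KA library stood above the highest SH library. The counts behind these levels were 185, 409 and 661 in SH and 542, 2143 and 3052 in KA. The rise was 4.67-fold (log2 change 2.22 ± 0.39, edgeR adjusted p = 0.0339), and 35 genes of all tested in glia had a smaller p.

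In neurons Cacng5 measured 19.7, 11.6 and 21.8 CPM in SH and 17.2, 26.3 and 16.002 CPM in KA, with overlapping groups. The difference between the 2 KA effects was tested itself. It was -2.06 ± 0.54 on the log2 scale, and did not pass after adjustment over all genes (edgeR adjusted p = 1.00), a contrast in which 0% of all genes passed. In this contrast 502 of the 37598 genes had an unadjusted p under 0.05, 2 members among them (Cacng5 and Cacng4), and DESeq2 called 0 members. With neurons and glia of a pool joined by a block, 1 member passed, Cacng5, at -1.94 ± 0.42 (edgeR adjusted p = 0.1402), where 0.157% of all genes passed in this direction.

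The call for Cacng5 in glia held in each of the 6 fits that left out 1 glia library, with edgeR adjusted p between 0.0292 and 0.182. Without both low-input libraries the log2 change was 2.06 and the call was lost (edgeR adjusted p = 0.703). That fit rested on 2 SH and 2 KA glia libraries. Their levels were 19.9 and 19.8 CPM in SH and 47.1 and 126 CPM in KA.

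Marker lists of other cell types were read beside Cacng5. In glia the sum of 10 microglia markers was 1210 to 2746 CPM in SH and 965 to 1993 CPM in KA. The sum of 10 astrocyte markers was 1922 to 2803 CPM in SH and 1193 to 2304 CPM in KA. For 7 endothelial markers it was 125 to 257 CPM in SH and 153 to 214 CPM in KA, and for 5 pericyte markers 31.6 to 51.7 and 22.5 to 55.4 CPM. No marker in any of these 4 lists rose in KA glia at the threshold, and P2ry12 and Aldoc fell. With the replicate block, Gfap of the astrocyte list (1.90 on the log2 scale, edgeR adjusted p = 0.00142) and Tek of the endothelial list (1.29, adjusted p = 0.212) rose, and 6 astrocyte and 2 microglia markers fell. The endothelial markers had a median log2 change of 0.71, with 5 of the 7 above 0, and every marker of these lists had counts in every library. As a percentage of the summed microglia markers, Cacng5 stood at 0.704%, 1.65% and 0.719% in SH glia and at 4.88%, 6.57% and 6.31% in KA glia. Against the astrocyte sum it was 0.550% to 1.04% in SH and 2.04% to 7.24% in KA. Against the endothelial sum it was 5.79% to 15.9% in SH and 22.4% to 58.7% in KA. Cacng5 was thus higher against each of these 3 sums in every KA library, and the part of these cell types in its rise was not tested.

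The 3 genes whose log2 CPM followed Cacng5 most closely over the 12 libraries, among 25226 genes compared, were Ch25h (Pearson r = 0.947), Lilr4b (0.930) and Gm3448 (0.924). Group means were not removed, so the rise in KA glia for which Cacng5 was chosen enters these values. The study lists these 3 genes, and Cacng5 itself, as upregulated in glia as well. The values are descriptions over libraries that share pools, treatment and depth.

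Cacng5 lies on chromosome 11 at 107874605-107915055 (GRCm38, minus strand), near Cacng4 at 107732357-107794557 on the same strand. The gap between them is 80047 bases, and 3 other annotated genes touch it (Gm11650, Gm23120 and Gm27595). In glia the log2 changes of Cacng4 and Cacng5 had opposite signs. The RefSeq table used here holds 2 start windows for Cacng5, each from 250 bases before to 50 bases after a start, and they are shown because Cacng5 was the one member that rose. They are printed on the gene's strand, and capitals mark matches to a motif. The first is chr11:107915006-107915305 and the second chr11:107911313-107911612 (GRCm38.p6).
Cacng5 start 1: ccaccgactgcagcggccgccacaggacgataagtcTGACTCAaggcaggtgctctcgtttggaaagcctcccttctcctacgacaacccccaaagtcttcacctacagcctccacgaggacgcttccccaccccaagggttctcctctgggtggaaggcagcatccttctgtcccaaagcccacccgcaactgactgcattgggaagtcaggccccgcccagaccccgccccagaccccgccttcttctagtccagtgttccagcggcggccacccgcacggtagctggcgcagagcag
Cacng5 start 2: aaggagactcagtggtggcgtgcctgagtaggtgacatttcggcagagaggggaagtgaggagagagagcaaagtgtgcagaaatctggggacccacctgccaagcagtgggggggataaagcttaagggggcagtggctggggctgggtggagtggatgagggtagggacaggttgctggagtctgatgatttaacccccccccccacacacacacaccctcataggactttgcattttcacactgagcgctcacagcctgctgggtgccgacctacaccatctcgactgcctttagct

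Windows were found for 7 of the 10 members (Gria2, Gria4, Cacng2, Cacng3, Cacng5, Cacng7 and Cacng8). Both strands were searched for the AP-1 core TGANTCA, the CRE core TGACGTCA and the STAT core TTCNNNGAA. The first Cacng5 window held the one match among the 8 windows of members, an AP-1 core at position -214 from the start. This core is in 7.81% of the 32851 windows of the table, the CRE core in 1.79% and the STAT core in 8.30%. The first Cacng5 window had 63.3% G and C and the second 57.3%, beside a median of 52.7% over all windows. A match of letters is a description and does not show that a factor binds.

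**Figure D4:**
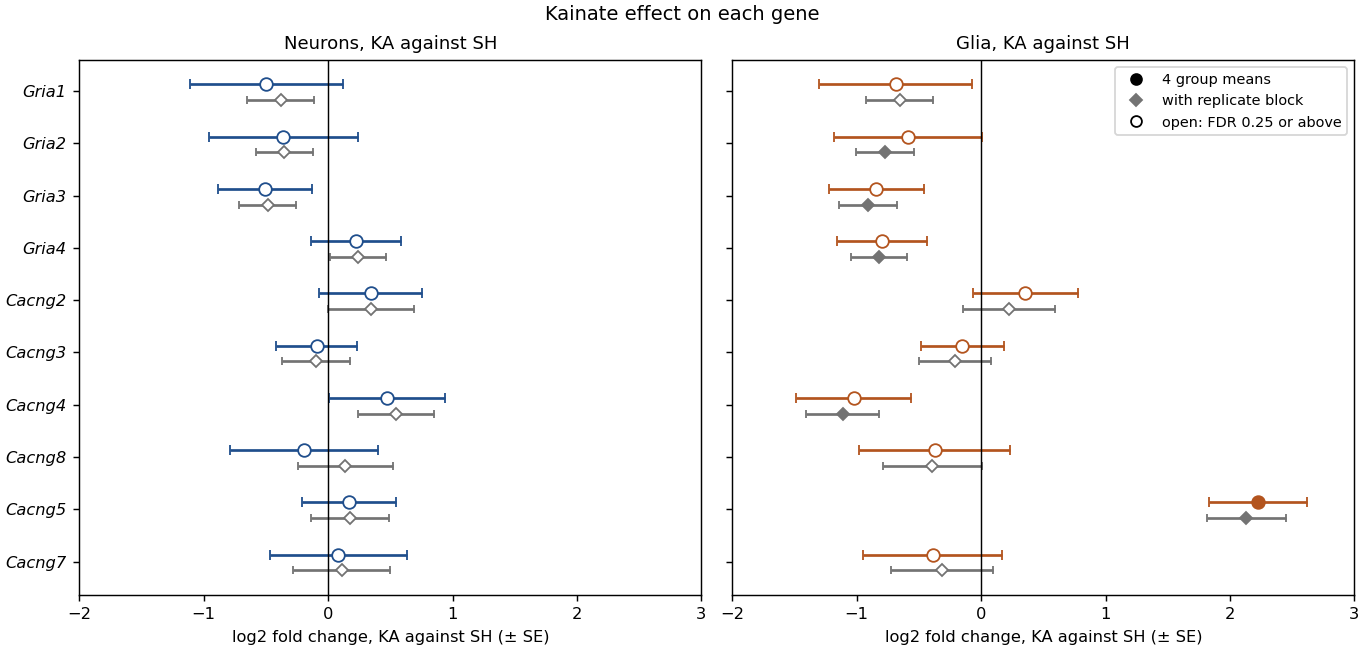
Log2 fold change of KA against SH with its standard error for each gene, in neurons (left) and glia (right). Circles are the fit of 4 group means, grey diamonds the fit with a block for the replicate number, and filled symbols passed an FDR of 0.25. Cacng5 in glia is the one gene past the threshold in both fits, and Gria2, Gria3, Gria4 and Cacng4 in glia passed with the block.

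All 4 Gria genes were lower in each KA glia library than in the SH glia library of the same number, but none passed the threshold in the fit without a block. Gria3 measured 46.4, 61.7 and 77.7 CPM in SH glia and 20.4, 31.5 and 51.6 CPM in KA glia for replicates 1, 2 and 3. Its groups overlapped, and its log2 change was -0.84 ± 0.38 (edgeR adjusted p = 1.00). Gria4 measured 53.8, 72.7 and 97.7 CPM in SH glia and 29.03, 39.1 and 60.7 CPM in KA glia (-0.80 ± 0.36). Gria2 measured 585, 997 and 1417 CPM in SH glia and 258, 537 and 1203 CPM in KA glia (-0.59 ± 0.60). Gria1 measured 75.9, 378 and 287 CPM in SH glia and 53.4, 159 and 248 CPM in KA glia (-0.69 ± 0.62). With 1 glia library left out, the log2 change ran from -1.34 (without KA replicate 3) to -0.24 (without KA replicate 1) for Gria2, from -1.23 to -0.25 for Gria1, from -1.26 to -0.61 for Gria3 and from -1.14 to -0.56 for Gria4. Without the 2 low-input libraries it was -0.79 for Gria2, -1.15 for Gria1, -1.04 for Gria3 and -1.04 for Gria4, none of which passed. In SH and in KA glia, replicate 1 was the lowest library for all 4 genes.

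With a block for the replicate number, 5 of the 10 members passed the FDR of 0.25 in glia. Cacng5 rose (2.13 ± 0.32, edgeR adjusted p = 0.000828), where 3.47% of all genes rose. Gria3 fell by 0.91 ± 0.23 (edgeR adjusted p = 0.0424), Cacng4 by 1.11 ± 0.29 (0.0506), Gria4 by 0.82 ± 0.23 (0.0612) and Gria2 by 0.77 ± 0.24 on the log2 scale (0.106), where 4.17% of all genes fell. Gria1 did not pass (-0.66 ± 0.27, edgeR adjusted p = 0.287). Both low-input libraries enter the pairs of replicates 1 and 2. Without the pair of replicate 1 the members passing with the block numbered 5, without that of replicate 2 they numbered 4 and without that of replicate 3 they numbered 2 (Cacng5 and Gria2).

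The neuron markers were also lower in KA glia. Their sum was 648, 1757 and 1975 CPM in SH glia and 544, 985 and 1732 CPM in KA glia, lower in each KA library than in its SH partner. All 15 genes had counts in every library. None was called in the fit without a block, and 2 fell with the replicate block. As a percentage of this sum, Gria1 stood at 11.7%, 21.5% and 14.5% in SH glia and 9.82%, 16.1% and 14.3% in KA glia. Gria3 stood at 7.16%, 3.51% and 3.93% in SH and 3.75%, 3.19% and 2.98% in KA. Gria2 stood at 90.2%, 56.8% and 71.8% in SH and 47.3%, 54.5% and 69.4% in KA. The ranges overlapped for all 3 genes, yet each KA library lay below its SH partner for each gene. The part of the neuron markers in the lower Gria values was not tested.

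Gria4 had log2 changes of opposite sign in the fractions. It was higher in 3 of 3 KA neuron libraries and lower in 3 of 3 KA glia libraries than in their SH partners. As a percentage of its level in neurons of the same pool, its level in glia was 62.4% to 71.3% in SH pools and 27.4%, 28.4% and 43.9% in KA pools. The test of the difference between its KA effects gave 1.02 ± 0.51 on the log2 scale (edgeR adjusted p = 1.00), and 1.06 ± 0.29 with a block by pool (edgeR adjusted p = 0.338).

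Cacng4, the glial TARP, measured 56.7, 62.9 and 73.8 CPM in SH glia and 40.3, 16.9 and 37.9 CPM in KA glia. All KA libraries lay below all SH libraries, and Cacng4 and Cacng5 were the 2 of 10 members without overlap in glia, where 6.61% of all genes had none. The log2 change of Cacng4 was -1.02 ± 0.46 and did not pass without the block (edgeR adjusted p = 0.994). The lowest value was that of KA glia replicate 2, a low-input library, and without both such libraries the log2 change was -0.97.

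The OPC markers (Pdgfra, Cspg4, Olig1, Olig2, Sox10 and Vcan) were lower beside Cacng4. Whether this list separates precursors from mature oligodendrocytes was not tested. The sum of the 6 genes was 2362, 1899 and 3069 CPM in SH glia and 1275, 867 and 1721 CPM in KA glia, with no overlap. All 6 had counts in every library and negative log2 changes. In the fit without a block 1 of them, Cspg4, was called, and with the replicate block 4 of the 6 fell. As a percentage of this sum, Cacng4 stood at 2.40%, 3.32% and 2.41% in SH glia and 3.16%, 1.95% and 2.20% in KA glia, and Gria4 at 2.28%, 3.83% and 3.18% in SH and 2.28%, 4.51% and 3.52% in KA. Both percentages overlapped between treatments. For Cacng5 the percentage went from 0.630% to 1.05% in SH glia up to 3.69%, 9.45% and 7.30% in KA glia. The sum of 8 oligodendrocyte markers was 11980 to 25012 CPM in SH glia and 6489 to 12206 CPM in KA glia, overlapping by 1 library. All 8 had negative log2 changes, with none called in the fit without a block and 4 lower with the replicate block. The part of OPC or oligodendrocyte RNA in the values of Cacng4 was not tested.

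**Figure D5:**
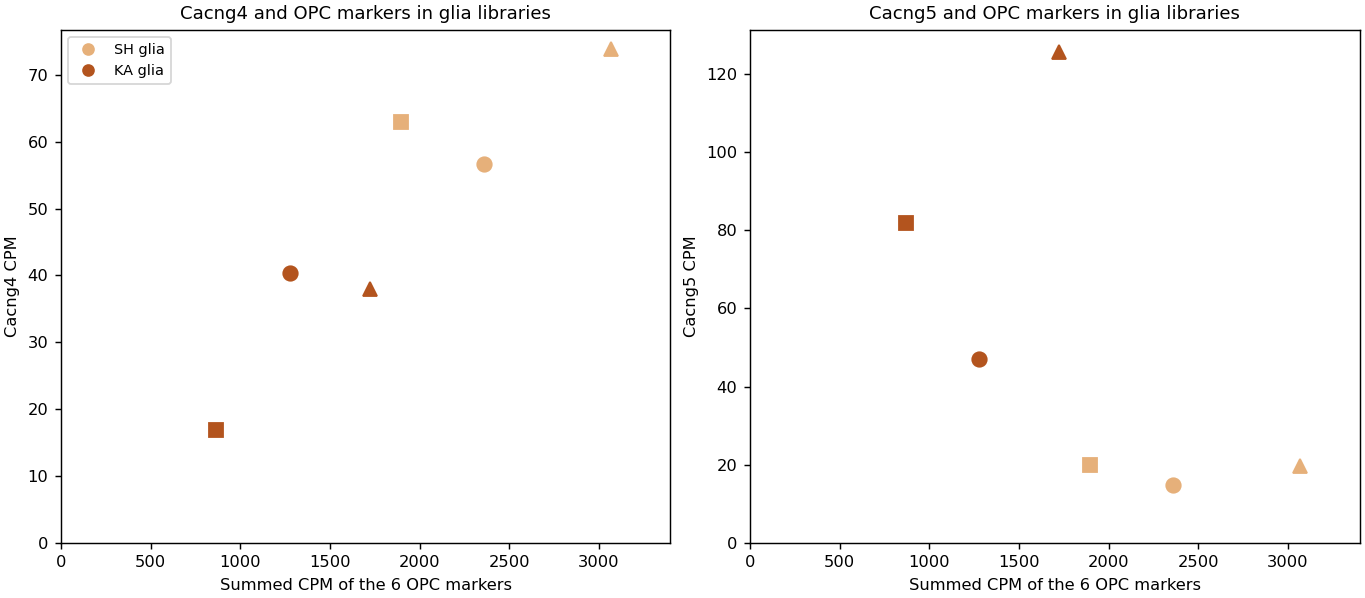
Level of Cacng4 (left) and of Cacng5 (right), in CPM, against the summed CPM of the 6 OPC markers in the 6 glia libraries. Light symbols are SH and dark symbols KA, and circles, squares and triangles are replicates 1, 2 and 3. Cacng4 was lowest in the library with the lowest OPC sum and highest in the one with the highest. Within SH and within KA, the order of Cacng4 did not follow that of the OPC sum. Cacng5 was 47.1 to 126 CPM in KA glia at OPC sums of 867 to 1721 CPM.

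Cacng2 measured 5.31, 4.28 and 3.47 CPM in SH glia and 3.48, 9.48 and 3.58 CPM in KA glia (0.35 ± 0.42). Its highest value was the low-input KA glia replicate 2, and without the low-input libraries the log2 change turned to -0.25. Cacng3 (-0.15 ± 0.33), Cacng7 (-0.39 ± 0.56) and Cacng8 (-0.37 ± 0.61) had overlapping groups, and without the low-input libraries their log2 changes were -0.42, -0.60 and -0.61. The leading TARP of the summed glial level was Cacng4 in every SH library and Cacng5 in every KA library. Cacng4 held 60.4%, 54.3% and 55.6% of the summed TARP CPM per kb in SH glia and 38.8%, 13.9% and 19.8% in KA glia, whereas Cacng5 held 14.8%, 16.02% and 13.9% in SH glia and 42.3%, 62.7% and 61.1% in KA glia. The summed TARP level per kb itself was 26.2 to 37.2 CPM per kb in SH glia and 29.1 to 53.7 in KA glia.

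Across the 12 libraries, with group means removed, the Gria genes varied together. Pearson r of log2 CPM was 0.961 for Gria2 and Gria3, 0.949 for Gria2 and Gria4 and 0.926 for Gria3 and Gria4, and 0.821 to 0.835 for Gria1 with the others. For Cacng8 r was 0.873 with Gria1, 0.783 with Gria2, 0.806 with Gria3 and 0.898 with Gria4. These values describe libraries that share pools, depth and nuclear makeup. Counting ignored the strand, and 5.86% of the exon bases of Cacng2 lie in exons of a gene on the opposite strand and 3.88% of those of Cacng8 in exons of a gene on the same strand.

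The other genes of the AMPA receptor pathway were described from a list of 32, made of further auxiliary subunits, biogenesis factors, scaffolds, pentraxins, editing enzymes and 2 related gamma subunits. All 32 were tested. In neurons 1 rose and none fell, beside 0.279% and 0.0612% of all genes, and in glia 1 rose and 1 fell, beside 0.442% and 0.306% (edgeR, FDR below 0.25). The median log2 change of the list was 0.01 in neurons and -0.13 in glia. None of the 5 biogenesis genes, the 11 scaffold and trafficking genes, the 2 editing enzymes and the 2 related gamma subunits passed in either fraction. The 5 biogenesis genes had negative log2 changes in both, with medians of -0.16 in neurons and -0.59 in glia. In SH, 17 were higher in neurons, where 6.05% of all genes were, and 1, Shisa8, was higher in glia, where 4.67% were.

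Nptx2 encodes a secreted pentraxin that gathers AMPA receptors at excitatory synapses and is known as an activity-induced gene. It rose in both fractions, and the study lists it as upregulated in both as well. It measured 35.3, 35.1 and 39.8 CPM in SH neurons and 394, 364 and 588 CPM in KA neurons, a 12.2-fold rise (log2 change 3.61 ± 0.59, edgeR adjusted p = 0.0369). In glia it measured 3.22, 11.3 and 10.49 CPM in SH and 25.2, 41.3 and 124 CPM in KA, a 7.56-fold rise (2.92 ± 0.57, edgeR adjusted p = 0.0548). Without the low-input libraries the log2 change in glia was 2.75 and did not pass (edgeR adjusted p = 0.482). In glia of the KA pools Nptx2 stood at 6.40%, 11.4% and 21.1% of its level in neurons, below the 9.91%, 16.2% and 25.03% of the summed neuron markers in each pool. In the SH pools it stood at 9.10%, 32.3% and 26.3%, beside 12.1%, 29.5% and 22.6% for the markers. There it lay below the markers in the first pool and above them in the others. How much of its glial rise came from neuronal RNA in the NeuN- fraction was not tested. Its relatives Nptx1 and Nptxr had log2 changes of 0.25 ± 0.67 and 0.66 ± 0.59 in neurons and did not pass.

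Shisa8 encodes an auxiliary subunit of the CKAMP family, and the study lists it as downregulated in glia. It measured 33.3, 11.5 and 19.4 CPM in SH glia and 5.997, 4.32 and 5.31 CPM in KA glia, a 4.10-fold fall (log2 change -2.04 ± 0.49, edgeR adjusted p = 0.150). Its highest SH value was the low-input replicate 1, and without the low-input libraries the log2 change was -1.65 and did not pass (edgeR adjusted p = 1.00). In neurons it stood at 1.21 to 2.70 CPM in SH and 2.05 to 4.66 CPM in KA (0.78 ± 0.48). Like Cacng4 it was more abundant in glia than in neurons of SH pools, by 10.2-fold (edgeR adjusted p = 0.000529). This fall in glia stands beside the lower OPC markers given above, with a median log2 change of -0.90. Medians were -0.92 for astrocyte markers, -0.79 for oligodendrocyte markers and -0.44 for microglia markers. They were -0.14 for pericyte markers and 0.71 for endothelial markers. The part of these cell types in the fall was not tested.

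With the replicate block 3 genes of the list passed in neurons and 9 in glia, where 3.05% and 7.64% of all genes did. Prrt1, an auxiliary subunit, measured 158, 106 and 299 CPM in SH neurons and 103, 64.9 and 73.4 CPM in KA neurons, and fell by 1.11 on the log2 scale (edgeR adjusted p = 0.0595). Grip2, a scaffold that binds the tails of Gria2 and Gria3, measured 18.1, 25.4 and 37.7 CPM in SH neurons and 34.2, 43.7 and 59.7 CPM in KA neurons, and rose by 0.79 (edgeR adjusted p = 0.216). Nptx2 was the other. In glia Nptx2 and Adarb1, the enzyme that edits the Q/R site printed above, rose (Adarb1 by 0.87, edgeR adjusted p = 0.216), and 7 genes fell. The latter were Cnih2 (by 0.95, edgeR adjusted p = 0.0302), Shisa7, Shisa8, Prrt1, Frrs1l, Porcn and Abhd6. Cnih2, a cornichon that helps AMPA receptors leave the endoplasmic reticulum, measured 39.5, 79.0 and 96.1 CPM in SH glia and 22.3, 32.0 and 58.8 CPM in KA glia. All of these apart from Nptx2 and Shisa8 failed without the block. In neurons Cnih2 measured 238 to 324 CPM in SH and 178 to 206 CPM in KA (-0.61 ± 0.41). In SH, Cnih2 (4.12-fold), Shisa7 (4.98-fold), Frrs1l (3.45-fold) and Porcn (2.85-fold) were higher in neurons than in glia (edgeR adjusted p between 0.00445 and 0.0487). Prrt1 and Abhd6 did not pass there without a block, and Shisa8 was higher in glia. The falls in glia stand beside the lower neuron markers given above, whose part was not tested.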

How the data were processed

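RNA of sorted nuclei was measured by mRNAseq (SMART-Seq v4) in 12 libraries of 4 groups. The authors trimmed reads with Trim Galore 0.4.3, aligned them to mm10 with Rsubread and counted uniquely mapped reads per gene with featureCounts (defaults, unstranded, GENCODE M16). They deposited raw counts per gene. Totals were 7769400 to 40364768 per library. Amplified reads carry no molecular identifiers. The sequencer of each library is not given in the sources used here. RRBS data were not used here.

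Symbols and exon lengths came from GENCODE M21 and sequences from GRCm38.p6 (RefSeq). The count test was the edgeR 4.0.16 quasi-likelihood test under R 4.3.3 (filterByExpr, TMM, glmQLFit with legacy=TRUE, 4 group means, glmQLFTest, Benjamini-Hochberg), two-sided, over 37598 genes, at an FDR of 0.25 for KA against SH and 0.05 for neurons against glia. SE is the size of the log2 change over the square root of F. The test was tried on simulated counts. Pools are the replicates, with 3 per group. In the fit of 4 group means, p-values measure the spread between libraries within groups, shared over neurons and glia. Neuron and glia libraries of the same pool enter that fit as independent. Same-numbered KA and SH libraries deviated together (correlations 0.399, 0.264 and 0.551 in neurons, 0.457, 0.543 and 0.764 in glia), so a replicate block was fitted beside, and a block by pool where neurons and glia came from the same animals. Alternatives were other scalings, filters and tests (DESeq2 1.42.0), separate fits, libraries left out, and, chosen after seeing the data, the block without 1 pair and the pathway genes without the low-input libraries. Members, marker lists and the pathway list were chosen with earlier results of these data known. Named were all members, pathway genes past a KA against SH threshold with or without the replicate block, and Nptx1 and Nptxr. Genes most like Cacng5 needed a mean of 1 CPM.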

Additional observations from a re-analysis of the deposited data

Results flagged for a closer look

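The KA effect on Cacng5 differed between neurons and glia in the test of the difference with a block by pool (-1.94 ± 0.42 on the log2 scale, edgeR adjusted p = 0.1402), and not without the block (-2.06, edgeR adjusted p = 1.00). The same holds for Shisa8, at 2.67 with the block (edgeR adjusted p = 0.246) and 2.81 without it (adjusted p = 1.00). Gria4 and Cacng4 drew attention because every same-numbered pair moved up in neurons and down in glia. The tested differences were 1.02 for Gria4 (edgeR adjusted p = 1.00, and 0.338 with the block) and 1.496 for Cacng4 (adjusted p = 1.00, and 0.487 with the block), and neither passed. With 3 pools per group, no outlying library was searched for.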

How the results depend on the processing

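With 3 pools per group and low counts for several TARPs, small changes could not be resolved. In neurons no member passed under any alternative run. In glia, where 1 member passed, 3 passed with 10 counts required in every library, 0 without the 2 low-input libraries, 5 with the replicate block, 5 with the block in separate fits, and 5, 4 and 2 with the block without pairs 1, 2 and 3, an alternative chosen after seeing the data. For the difference between the KA effects, 1 passed with the block by pool in place of 0. The blocks changed no other count of members called. For neurons against glia in SH, 7 passed, 4 with no filter, 2 without the low-input libraries and 3 to 7 with 1 library left out. As shares of counts without length, Gria1 held 24.6% and 16.8% of SH neurons and SH glia, Gria2 68.8% and 72.8% and Gria4 1.84% and 5.70%. These shares differ from those per kb through the division by exon length alone. The exons span 15548 bases in Gria2, 6043 in Gria1 and 6305 in Gria4. The cause of the other changes was not tested.

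Signs of log2 changes turned for results that had not passed a threshold. Without the low-input libraries these were Cacng2 in glia (-0.25), its difference (0.59) and Cacng7 between SH neurons and glia (-0.30). With library totals alone they were Cacng3 in neurons (0.0049), in glia (0.077) and its difference (-0.072), and Cacng8 in neurons (0.043). No filter turned the difference of Cacng2 (0.11), as did the block by pool (0.13). Separate fits turned Cacng3 in glia (0.021). The replicate block turned Cacng8 in neurons (0.14, and 0.12 in separate fits). The block without pair 1 turned Cacng3 in neurons (0.071) and glia (0.016), without pair 2 Cacng2 in glia (-0.26), Cacng8 in neurons (0.075) and glia (0.062) and Cacng5 in neurons (-0.32), and without pair 3 Cacng8 in neurons (0.72) and Cacng7 in glia (0.021).

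With 1 library left out, 15 of 40 log2 changes turned. In neurons these ranged from -0.26 to 0.023 for Cacng3, -0.63 to 0.61 for Cacng8, -0.092 to 0.35 for Cacng5 and -0.14 to 0.40 for Cacng7. In glia they ranged from -0.33 to 0.71 for Cacng2, -0.33 to 0.11 for Cacng3 and -0.65 to 0.35 for Cacng7. The differences ranged from -0.25 to 0.73 for Gria1, -0.13 to 0.98 for Gria2, -0.35 to 0.67 for Cacng2, -0.22 to 0.22 for Cacng3, -0.25 to 0.99 for Cacng8 and -0.27 to 0.79 for Cacng7. Between SH neurons and glia they ranged from -0.50 to 0.19 for Cacng5 and -0.30 to 1.10 for Cacng7.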
